A study of Mus musculus with 20 samples.

Results

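Livers of 20 male mice of 5 inbred strains were profiled on 1-colour Agilent gene expression arrays, and 4 multigene families that carry drugs, bile constituents, organic ions and lipids across liver cell membranes are described here. The members were the ATP-binding cassette genes Abca to Abcg (without the sterol, bile salt and fatty acid carriers Abcg5, Abcg8, Abca1, Abcb11, Abcd2 and Abcd3), the organic anion transporting polypeptides Slco, the organic ion carriers Slc22a and the multidrug extruders Slc47a. They were picked by a rule on the gene name on the array, which gave 87 genes on 117 probes, of 34726 gene names and 55642 probes in all. That rule was set with earlier results of these data known. Each strain is represented by 4 mice. B6 stands for C57BL/6, 129Ola for 129P2/OlaHsd, C3H for C3HeB/FeJ, DBA for DBA/2J and NZO for NZO/HiBomDife. No strain carries a transgene or deletion by its label, and all 20 mice, controls included, ate a high fat diet with 45% fat, so no chow-fed reference enters any comparison. Per the extraction protocol the mice were 6 weeks old. By the series title, diabetes resistance and leanness mark 129Ola and B6, diabetes susceptibility marks C3H and DBA, and NZO is both obese and susceptible. In the comparisons C3H and DBA count as lean strains too. A mouse is called by its strain and its label number.

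As background, a hepatocyte takes up compounds from sinusoidal blood through carriers of the Slco and Slc22a families and exports them either into bile through canalicular ATP-binding cassette pumps or back into blood through basolateral pumps of the Abcc family. The pumps use ATP, whereas the Slco and Slc22a carriers exchange or co-transport their substrates, and Slc47a1 moves cations against protons. Several of these genes are known targets of the xenobiotic receptors and of bile acid signalling, and some family members work in mitochondria, lysosomes or peroxisomes. The Abce and Abcf genes encode ATP-binding proteins of translation and carry nothing across a membrane.

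Levels are given as log2 of the processed signal minus the 75th percentile of the same array, so 1 unit is a doubling and 0 is a moderately bright probe. A level belongs to its own probe and cannot be set against that of another gene. For each gene the brightest probe that was tested stands. Of the 87 genes, 61 were well above background in all 4 mice of some strain and were tested together with the other genes of the array, 20613 in all, and 49 were above background on all 20 arrays. Between 40.02% and 59.06% of probes were above background per array, and the mean log2 level of 12 hepatocyte markers lay between 8.94 and 9.25 in all 20 mice, as the liver label requires. The B6, NZO and DBA arrays were read out with 1 version of the scanner software over 3 days, and the C3H and 129Ola arrays with another. DBA 8 and DBA 15 were alone on day 3 and on their slide, so the DBA comparisons are not balanced over scan days. C3H and 129Ola were scanned on separate days and slides, so for this pair strain cannot be told apart from scan day. Comparisons were therefore made within B6, NZO and DBA and between C3H and 129Ola, and levels across those sets are given only for description.

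In NZO against B6, 20 of 61 tested members passed an adjusted p under 0.05 (limma, Benjamini-Hochberg over all genes), which is 32.8% of members against 18.3% of all genes. Of these, 10 were higher and 10 lower in NZO (9.69% and 8.56% of all genes). Against DBA, NZO differed in 19 members, or 31.1% against 18.0%, with 12 higher and 7 lower (9.75% and 8.28% of all genes), and 12 members passed without NZO 3. DBA differed from B6 in 15 members, or 24.6% against 15.3%, with 7 higher and 8 lower (7.26% and 8.07% of all genes). Between C3H and 129Ola 31 members passed, or 50.8% against 37.9% of all genes. In C3H 5 were higher and 26 lower, which is 8.20% and 42.6% of members against 15.4% and 22.6% of all genes. With slide as a random block 13 of these 31 passed. They were Slc22a7 and Slco2a1, which were higher, and Abca5, Abcb1b, Abcb6, Abcc4, Abcc6, Abcf1, Abcg1, Slc22a5, Slc22a21, Slco2b1 and Slco4a1, which were lower. Abcg3 and Slco4a1, both among the 26 lower, were above background on no C3H or 129Ola array, so their calls support nothing. The probes of Slco2b1 were called in opposite directions in this pair. The split by direction in C3H moved with the scaling. With the percentile taken over probes above background on all arrays, which moved the median of all genes by 0.16, 8 members were higher and 14 lower in C3H, while 63.8% of all called genes were higher in place of 40.5%. The same setting gave 8 higher and 12 lower members in NZO against B6, where 38.8% of called genes were higher in place of 53.1%. The median member difference was 0.07 for NZO minus B6 (all genes 0.05), 0.04 for DBA minus B6 (0.01), 0.02 for NZO minus DBA (0.04) and -0.29 for C3H minus 129Ola (-0.08). The difference between a susceptible and a resistant strain was also compared between the 2 pairs, as DBA minus B6 less C3H minus 129Ola, and this contrast passed in 22 members (36.1%, all genes 28.1%), 16 above 0 and 6 below (16.0% and 12.1% of all genes). With slide as a random block it passed in 12. No share of all genes is given for the slide block. An F test over all 5 strains, which also takes in the software version, passed in 51 members (83.6%, all genes 71.2%). The comparisons among B6, NZO and DBA share mice and are not independent.

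A gene was called strain-variable when a joint F test of NZO and DBA against B6 and C3H against 129Ola passed an adjusted p under 0.05 and at least 1 of the 4 differences reached 1 log2 unit. The F test passed in 40 of 61 members (65.6%, all genes 48.3%), and 17 members were strain-variable (27.9%, all genes 19.2%). These were Abca3 and Abca17 of 9 tested Abca genes, Abcb1b, Abcb8 and Abcb10 of 8 Abcb genes, Abcc3, Abcc4 and Abcc6 of 9 Abcc genes, and Abcg3 of 4 Abcg genes. In the carrier families they were Slc22a4, Slc22a7, Slc22a15, Slc22a21 and Slc22a26 of 16 Slc22a genes and Slco1a4, Slco2a1 and Slco4a1 of 8 Slco genes. Abcg3, Slco4a1 and Slc22a26 were above background on all arrays of 1 strain alone and were tested only through that strain, so their differences are descriptions and their calls in these counts support nothing. No member of the 2 Abcd, 1 Abce, 3 Abcf and 1 Slc47a genes tested was among them. The median over a family of the largest of the 4 differences was 0.92 for Slco, 0.76 for Slc22a, 0.75 for Abcg, 0.68 for Abcc, 0.58 for Abcb, 0.47 for Abca and 0.34 for Abcf, with 0.52 over all genes tested. In NZO against B6, none of 8 Slco genes was higher and 4 were lower, none of 9 Abcc genes was higher and 4 were lower, and 4 of 16 Slc22a genes were higher with none lower. Over all genes, 9.69% were higher and 8.56% lower. The family counts are small and the families were not tested against each other. Marker lists of other cell types moved in the same comparison. The mean log2 level of the tested markers was lower in NZO than in B6 without overlap for cholangiocytes (-1.12 to -0.60 against -0.23 to 0.15), macrophages (1.83 to 2.27 against 2.56 to 3.02), stellate cells (0.29 to 0.75 against 0.93 to 1.03), lymphocytes (-0.79 to -0.46 against -0.42 to -0.23) and adipocytes (-2.49 to -2.04 against -0.67 to -0.51). It was higher for erythroid cells (3.16 to 3.77 against 2.56 to 2.99). Fewer markers passed singly. Of 10 tested cholangiocyte markers 2 were higher and 4 lower. Called lower were 7 of 12 macrophage, 3 of 12 stellate cell, 1 of 8 lymphocyte and 1 of 4 adipocyte markers, with none higher. Of 6 erythroid markers 1 was higher and none lower. The adipocyte list held 8 genes, of which 4 were tested. The part of these cell types in the member counts was not tested.

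**Figure D1:**
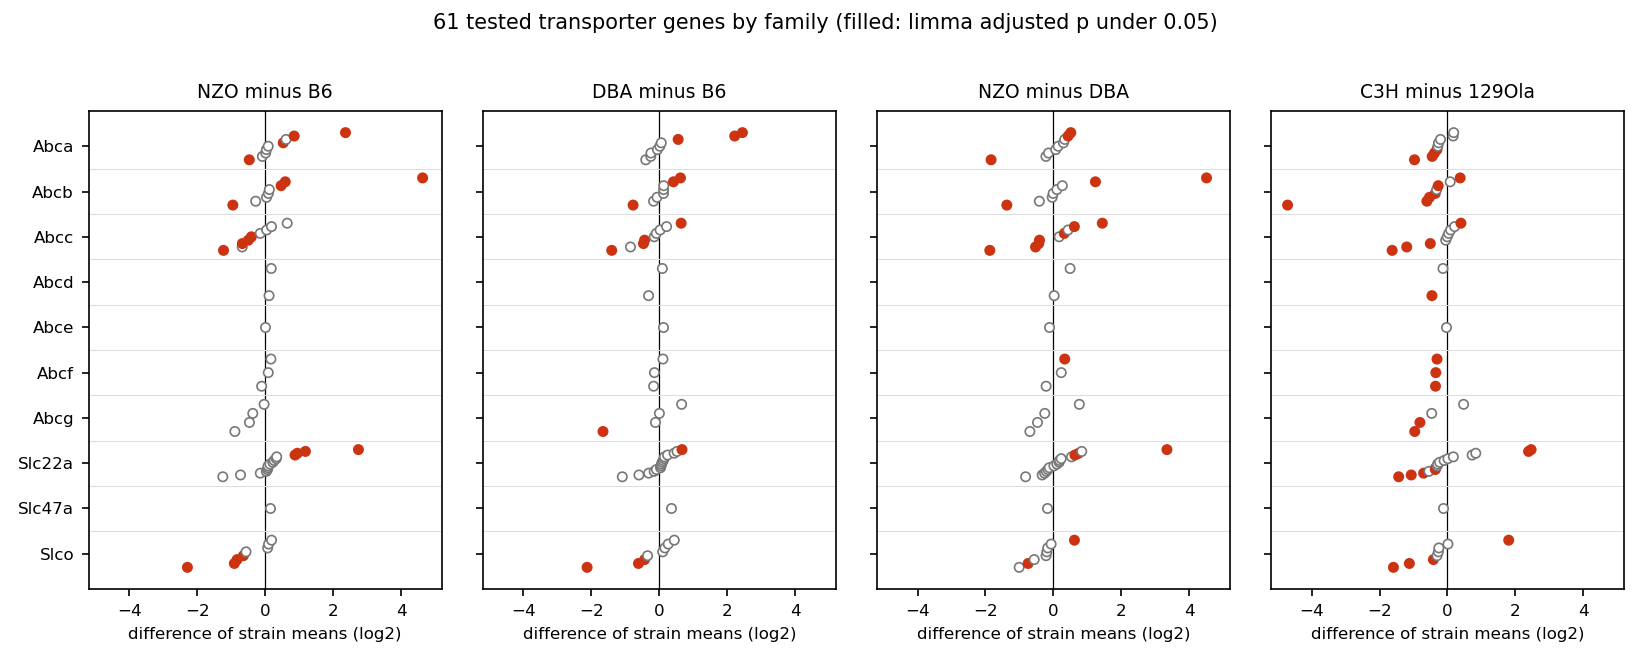
Difference of strain means in log2 units (x axis) for the 61 tested members, 1 point per gene, by family (y axis) in 4 comparisons. Filled points passed a limma adjusted p under 0.05, and genes not above background in 1 strain are drawn at their fitted difference. Abcb1b is the far point at 4.63 in NZO minus B6 and at -4.71 in C3H minus 129Ola.

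The largest strain difference among the exporters was that of Abcb1b, 1 of 2 mouse genes for P-glycoprotein, the canalicular pump that expels many hydrophobic drugs. Its probe lies at chr5:8865925-8865984 (mm9). The level was 1.45, 1.23, 1.86 and 1.38 in NZO mice 3, 7, 9 and 11, against -3.08, -2.90, -2.94 and -3.70 in B6 mice 9, 10, 11 and 15. DBA mice 5, 9, 8 and 15 had -3.13, -2.78, -3.41 and -2.81. B6 15 was not well above background, unlike the other 3 B6 mice and all DBA mice. NZO stood apart from both strains with no overlap, and B6 and DBA overlapped. NZO exceeded B6 by 4.63 ± 0.33 (SE, 24.8-fold with B6 15 at its measured value, adjusted p = 1.22e-08) and DBA by 4.51 ± 0.33 (22.8-fold, adjusted p = 1.37e-08). The NZO excess over B6 was 4.86 on the first scan day and 4.24 on the second. 129Ola mice 4, 5, 7 and 9 had 0.16, 0.15, 0.31 and 1.36, whereas no C3H array was above background (measured mean -4.21), so 129Ola was at least 11.5-fold higher (adjusted p = 8.66e-09). Such lower limits set the mean of the bright strain against the dimmest probes that were well above background on each array of the dim strain. Without 129Ola 9, which stood above the other 129Ola mice, the fitted difference was -4.42 (adjusted p = 2.68e-08).

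Its neighbour Abcb1a, the other P-glycoprotein gene (chr5:8748075-8748134, mm9), differed far less. Means ± SD (n = 4) were -2.26 ± 0.26 in B6, -1.68 ± 0.14 in NZO, -1.64 ± 0.11 in DBA, -2.21 ± 0.21 in C3H (3 of 4 arrays above background) and -1.61 ± 0.37 in 129Ola. It was higher in NZO than in B6 by 0.59 ± 0.17 (SE, adjusted p = 0.018), higher in DBA than in B6 by 0.62 (adjusted p = 0.0138) and lower in C3H than in 129Ola by 0.61 (adjusted p = 0.00888). Each of these calls was lost in at least 2 of the alternatives. Abcb4, the third gene of the row (chr5:8959108-8959167, mm9), encodes the canalicular phosphatidylcholine floppase. It ranged over mice from 6.76 to 6.99 in B6, 6.62 to 7.19 in NZO and 6.44 to 7.05 in DBA, with no difference past the threshold among them. It was lower in C3H than in 129Ola by 0.53 ± 0.14 (adjusted p = 0.00617), a call lost in 4 alternatives beside the replicate block, among them normexp background (adjusted p = 0.0675), quantile normalization (adjusted p = 0.0736) and slide as a random block (adjusted p = 0.0587).

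The promoters of the P-glycoprotein pair are printed because these neighbours, 231056 bases apart at their start sites and alike in product, differed so unequally between strains. The sequences are RefSeq's 250 bases before the start on the GRCm38.p6 assembly, which is that of B6, on the + strand, at chr5:8797897-8798146 for Abcb1b and chr5:8566841-8567090 for Abcb1a. They show the reference and no other strain. Capitals mark any match on either strand to the nuclear receptor core element AGGTCA, the CCAAT box CCAAT, the GC box GGGCGG, the TATA box TATAAA or the AP-1 site TGANTCA.
Abcb1b: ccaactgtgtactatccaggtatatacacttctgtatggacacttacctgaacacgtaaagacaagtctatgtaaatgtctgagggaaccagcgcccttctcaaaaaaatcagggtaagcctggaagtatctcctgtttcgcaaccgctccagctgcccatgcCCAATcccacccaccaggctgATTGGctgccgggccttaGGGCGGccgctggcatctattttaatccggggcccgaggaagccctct
Abcb1a: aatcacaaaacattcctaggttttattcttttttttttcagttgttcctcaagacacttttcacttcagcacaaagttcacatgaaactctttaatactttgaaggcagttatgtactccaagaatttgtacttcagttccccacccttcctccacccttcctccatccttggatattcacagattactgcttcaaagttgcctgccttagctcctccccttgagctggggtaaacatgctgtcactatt
The Abcb1b window held CCAAT letters 87 bases before the start and, on the other strand, 66 bases before it, and a GC box 48 bases before it. The Abcb1a window held none of these letter strings. Over all 32851 windows of this length in the RefSeq table, 33.8% held CCAAT, 32.7% GGGCGG, 14% AGGTCA, 12.4% TATAAA and 6.75% TGANTCA. A match is a string of letters and says nothing of a factor's binding. Of the 87 members, 69 had an entry in that table.

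Among lipid transporters of the Abca family, Abca3 and Abca17 stood out and are neighbours on chromosome 17. Abca3, known for loading surfactant lipid into lamellar bodies of the lung, was low in B6 alone. Its level (probe at chr17:24547066-24547125, mm9) was 4.87, 4.81, 4.67 and 4.89 in B6 mice 9, 10, 11 and 15. The other 16 mice had levels from 6.76 to 7.26, with means of 7.17 in NZO, 7.03 in DBA, 7.04 in C3H and 7.25 in 129Ola. No B6 mouse overlapped with any other mouse. NZO exceeded B6 by 2.36 ± 0.084 (SE, 5.14-fold, adjusted p = 1.43e-12) and DBA exceeded B6 by 2.22 (4.66-fold, adjusted p = 2.71e-12). C3H and 129Ola differed by -0.20 (adjusted p = 0.0648). The gene has 1 probe on the array.

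Abca17, the rodent paralog next to Abca3, was high in DBA. The level (probe at chr17:24404496-24404555, mm9) was 1.63, 1.13, 1.56 and 1.43 in DBA mice 5, 9, 8 and 15, and -1.59, -0.31, -0.96 and -1.18 in B6 mice 9, 10, 11 and 15. NZO mice 3, 7, 9 and 11 had -0.30, 0.01, -0.37 and -0.92. All DBA mice lay above all B6 and NZO mice. DBA exceeded B6 by 2.45 ± 0.26 (SE, 5.45-fold, adjusted p = 1.59e-06) and NZO was lower than DBA by 1.83 (adjusted p = 3.95e-05). NZO and B6 overlapped, with a difference of 0.61 (adjusted p = 0.113). In C3H 3 of 4 arrays and in 129Ola 1 of 4 arrays were above background, with means of -2.79 and -2.98. The gene's other probe was above background on 1 of 20 arrays and was not tested.

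The start sites of Abca17 and Abca3 lie 964 bases apart in RefSeq and the genes run away from each other, so both upstream windows fall in the stretch between them. They are printed since both genes of this head-to-head pair were strain-variable, in different strains. Abca3 is on the + strand (chr17:24351773-24352022, GRCm38.p6) and Abca17 on the - strand (chr17:24351060-24351309), each read towards its gene, with the same letters searched and marked.
Abca3: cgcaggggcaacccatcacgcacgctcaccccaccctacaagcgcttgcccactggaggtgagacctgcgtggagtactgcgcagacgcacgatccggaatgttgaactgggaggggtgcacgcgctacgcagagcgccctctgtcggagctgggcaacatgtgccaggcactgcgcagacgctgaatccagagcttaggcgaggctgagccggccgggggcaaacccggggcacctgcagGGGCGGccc
Abca17: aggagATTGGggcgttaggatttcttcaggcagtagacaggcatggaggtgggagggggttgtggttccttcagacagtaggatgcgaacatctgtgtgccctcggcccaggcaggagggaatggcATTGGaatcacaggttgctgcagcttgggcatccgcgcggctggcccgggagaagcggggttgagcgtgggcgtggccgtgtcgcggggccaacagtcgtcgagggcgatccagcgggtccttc
The Abca3 window held 1 GC box, 9 bases before the start, and 67.6% of its bases were G or C. In the Abca17 window (63.2% G or C) CCAAT letters stood on the other strand 245 and 124 bases before the start.

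**Figure D2:**
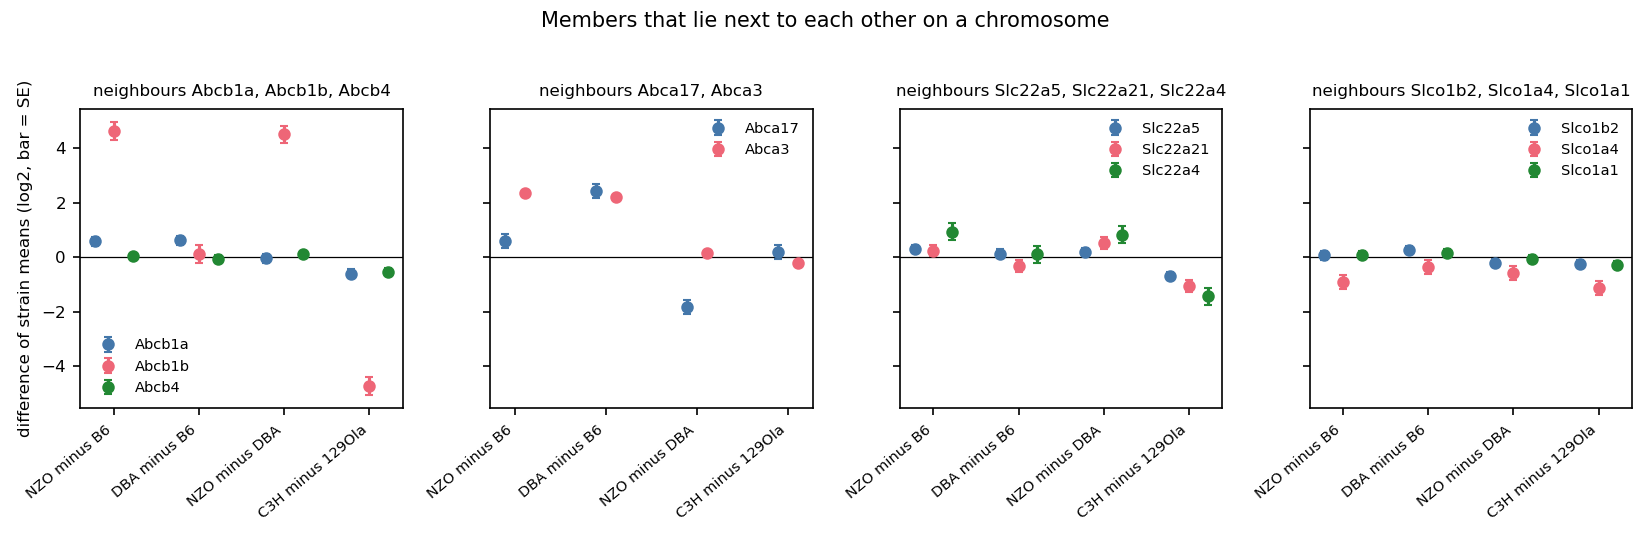
Difference of strain means in log2 units with SE (y axis) for 4 sets of members that are chromosomal neighbours, in 4 comparisons (x axis). Abcb1b departs from Abcb1a and Abcb4, Abca3 and Abca17 share the DBA excess over B6 but not the NZO one, and the 3 Slc22a genes are all lower in C3H than in 129Ola.

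The other Abca genes moved less. Abca5 was higher in NZO than in B6 by 0.85 (adjusted p = 0.000105), higher in DBA than in B6 by 0.56 and lower in C3H than in 129Ola by 0.97 (adjusted p = 2.24e-05). Its other tested probe gave 1.42, 0.73 and -1.13 for the same comparisons. Abca6 was lower in NZO than in B6 by 0.47 and in C3H than in 129Ola by 0.45, and Abca8b was higher in NZO than in B6 by 0.53. For these 2 genes, as for Abca2, Abca7 and Abca9, the calls were below 0.6 log2 units. In all, 3 of 9 tested Abca genes were higher and 1 lower in NZO against B6 (9.69% and 8.56% of all genes). In DBA against B6, 3 were higher (7.26% of all genes). In C3H against 129Ola 4 were lower, namely Abca5, Abca6, Abca7 and Abca9 (22.6% of all genes). With slide as a random block Abca5 alone of these 4 passed, and the adjusted p was 0.0831 for Abca6, 0.0908 for Abca7 and 0.215 for Abca9.

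The basolateral pumps of the Abcc family, which return conjugates to blood, held 3 strain-variable genes, each with its own pattern over strains. Abcc3 exports glucuronides from hepatocytes and was lowest in NZO (probe at chr11:94204612-94204671, mm9). NZO mice 3, 7, 9 and 11 had 2.46, 2.38, 2.41 and 2.42, B6 mice 9, 10, 11 and 15 had 3.93, 3.69, 3.48 and 3.49, and DBA mice 5, 9, 8 and 15 had 4.01, 4.12, 4.58 and 4.44. The 3 strains did not overlap. NZO was lower than B6 by 1.23 ± 0.17 (SE, 2.34-fold, adjusted p = 4.17e-05) and lower than DBA by 1.87 (3.66-fold, adjusted p = 2.65e-07). DBA exceeded B6 by 0.64 (adjusted p = 0.0139), a call lost with scan day as a block (adjusted p = 0.209) and without DBA 8 (adjusted p = 0.0561). C3H and 129Ola overlapped, at 4.44 ± 0.33 and 4.45 ± 0.27 (SD, n = 4).

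Abcc4 exports cyclic nucleotides and bile acids to blood and was low in DBA and in C3H (probe at chr14:118882104-118882163, mm9). DBA mice had -2.84, -2.19, -2.80 and -2.38, B6 mice ranged from -1.34 to -0.88 and NZO mice from -1.23 to -0.93. All DBA mice lay below all B6 and NZO mice. DBA was lower than B6 by 1.40 ± 0.21 (SE, 2.64-fold, adjusted p = 9.69e-05) and NZO was higher than DBA by 1.44 (adjusted p = 6.50e-05), while NZO and B6 differed by 0.04. C3H, with 3 of 4 arrays above background, had -1.85, -2.37, -2.40 and -2.55 against -1.21, -0.97, -1.65 and -0.53 in 129Ola, with no overlap and a difference of -1.20 (adjusted p = 0.000354). The difference DBA minus B6 and the difference C3H minus 129Ola were themselves not called different (-0.20 ± 0.30 SE, adjusted p = 0.647).

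Abcc6, a hepatic pump needed for ATP release and for restraint of ectopic calcification, was high in 129Ola (probe at chr7:53231864-53231923, mm9). 129Ola mice 4, 5, 7 and 9 had 6.18, 6.02, 5.92 and 6.06, and C3H mice 1, 2, 3 and 5 had 4.45, 4.48, 4.48 and 4.26. C3H was lower by 1.63 ± 0.13 (SE, 3.09-fold, adjusted p = 4.10e-08), and the gene's second probe gave -1.24 (adjusted p = 3.20e-07 over probes). Among the other strains DBA had 4.09, 4.76, 4.68 and 4.72, B6 4.89 to 5.14 and NZO 5.01 to 5.35. DBA was below both on this probe. NZO exceeded DBA by 0.62 (adjusted p = 0.00194), and DBA was lower than B6 by 0.43 (adjusted p = 0.0270, and 0.0611 without DBA 5). On the second probe neither difference passed (0.16 and -0.27).

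The remaining Abcc genes showed smaller differences. Abcc2, the canalicular pump for bilirubin glucuronide, had means of 4.11 in B6, 3.97 in NZO, 3.65 in DBA, 4.12 in C3H and 4.03 in 129Ola. It was lower in DBA than in B6 by 0.47 ± 0.10 (SE, adjusted p = 0.00411). Abcc10 was lower in NZO than in B6 by 0.50 (adjusted p = 0.00446). Abcc5 was lower by 0.41 on its brightest probe (adjusted p = 0.0495 over genes and 0.0521 over probes), while its 2 other tested probes gave -0.11 and -0.10 (adjusted p = 0.860 for each). Abcc9, a regulatory subunit of potassium channels, was lower in NZO than in B6 by 0.67 (adjusted p = 0.00338). The part of the lower stellate cell markers in the Abcc9 difference was not tested. Abcc1 and Abcc8 passed in no comparison. Thus none of 9 Abcc genes was higher in NZO than in B6, and Abcc3, Abcc9 and Abcc10 were lower, as was Abcc5 on 1 of 3 probes. Over all genes, 9.69% were higher and 8.56% lower.

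Both strain-variable genes among the transporters of mitochondria and other organelles belonged to the inner mitochondrial membrane. Abcb10, known from heme synthesis and export of biliverdin, was low in NZO, at 2.33, 1.87, 2.01 and 2.22 in mice 3, 7, 9 and 11 (probe at chr8:126476407-126476466, mm9). B6 ranged from 2.92 to 3.13 and DBA from 3.17 to 3.65, so the 3 strains did not overlap. NZO was lower than B6 by 0.95 ± 0.11 (SE, 1.94-fold, adjusted p = 8.02e-06) and lower than DBA by 1.37 (2.59-fold, adjusted p = 8.36e-08). The smaller DBA excess over B6, 0.42 (adjusted p = 0.0168), was lost with scan day as a block (adjusted p = 0.191).

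Abcb8, a mitochondrial exporter tied to iron handling, was low in DBA on 1 probe and not on another. On the brightest probe (chr5:23915694-23915753, mm9) DBA mice had 2.53, 2.61, 2.66 and 2.63, against 3.21 to 3.50 in B6 and 3.72 to 3.99 in NZO. The groups did not overlap. DBA was lower than B6 by 0.77 ± 0.091 (SE, adjusted p = 5.98e-06) and NZO exceeded DBA by 1.24 (2.36-fold, adjusted p = 1.58e-08). The second tested probe gave 0.19 for DBA against B6 (adjusted p = 0.333) and 0.07 for NZO against DBA (adjusted p = 0.746), so the 2 probes disagree and the level of the gene in DBA is uncertain. NZO minus B6 was 0.47 (adjusted p = 0.00121) on the first probe and 0.27 on the second (adjusted p = 0.128). Of 7 genes in the organelle list, 3 were lower in C3H than in 129Ola (Abcb6, Abcb8 and Abcd4), and Abcb10 was higher by 0.37. Over all genes, 22.6% were lower and 15.4% higher in that pair. With slide as a random block the calls for Abcb8 (adjusted p = 0.182), Abcb10 (adjusted p = 0.138) and Abcd4 (adjusted p = 0.0779) in that pair were lost.

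Of the Abcg transporters, Abcg2, the canalicular pump for urate and many drugs, did not pass the F test (adjusted p = 0.0515). Its means were 5.86 in B6, 5.39 in NZO, 5.86 in DBA, 5.95 in C3H and 6.41 in 129Ola, with overlapping mice. Abcg3, a rodent paralog of Abcg2 (probe at chr5:105364855-105364914, mm9), was above background on all arrays of B6 alone, at -3.29, -3.21, -2.91 and -2.87. No DBA array was above background, and B6 was at least 1.87-fold higher (measured means -3.07 and -4.73). In NZO 1 of 4 arrays was above background, and in C3H and 129Ola none. Abcg1, a sterol exporter of macrophages, was lower in C3H than in 129Ola by 0.81 (adjusted p = 0.000359). Of 12 macrophage markers, 8 were lower and 1 higher in C3H than in 129Ola (22.6% and 15.4% of all genes). Their mean log2 level overlapped, at 1.10 to 1.81 in C3H against 1.59 to 2.30 in 129Ola. The part of these markers in the Abcg1 difference was not tested. In bulk liver, fewer cells of a type and less RNA per cell cannot be told apart.

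**Figure D3:**
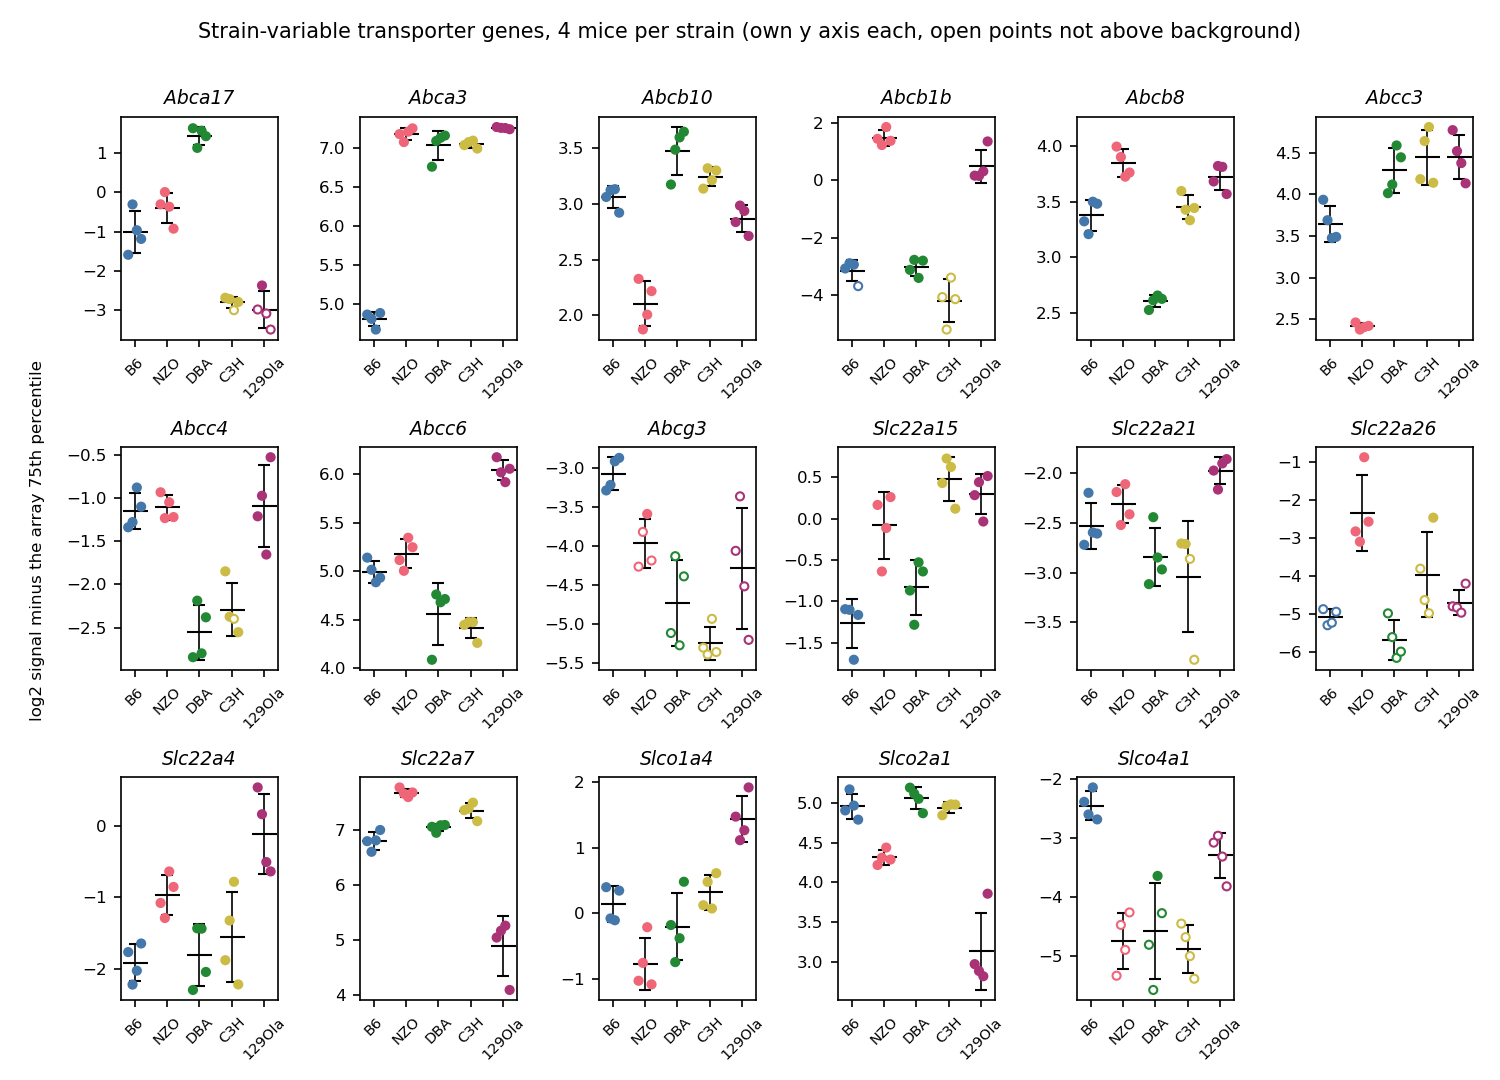
Level in each of 4 mice per strain (y axis, log2 signal minus the array's 75th percentile, with its own scale in each panel) for the 17 strain-variable members, by strain (x axis). Bars are mean and SD, and open points are arrays not well above background. Abcb1b is high in NZO and 129Ola, Abca3 is low in B6 alone, and Slc22a7 and Slco2a1 are low in 129Ola.

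Among the Slco uptake carriers, Slco2a1, the prostaglandin transporter, had the largest of the 4 tested differences among genes above background on all 20 arrays (probe at chr9:102990100-102990159, mm9). 129Ola mice 4, 5, 7 and 9 had 2.97, 2.89, 2.82 and 3.86, and C3H mice 1, 2, 3 and 5 had 4.84, 4.96, 4.98 and 4.98. C3H was higher by 1.80 ± 0.17 (SE, 3.49-fold, adjusted p = 3.55e-07), and the groups did not overlap, 129Ola 9 included. NZO mice had 4.22, 4.31, 4.44 and 4.29, below B6 (4.79 to 5.17) and DBA (4.87 to 5.19) without overlap. NZO was lower than B6 by 0.64 (adjusted p = 0.0118) and lower than DBA by 0.74 (adjusted p = 0.00400). Slco2a1 is known from endothelium, and the mean level of 12 sinusoidal endothelial markers overlapped between C3H (2.04 to 2.25) and 129Ola (2.11 to 2.37), and between NZO (2.04 to 2.45) and B6 (2.15 to 2.41). By gene, 2 of the 12 markers were higher and 6 lower in C3H than in 129Ola (15.4% and 22.6% of all genes). In NZO against B6, 1 was higher and none lower. The part of these markers in the Slco2a1 differences was not tested.

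Slco1a4, an uptake carrier of hepatocytes for digoxin and bile acids, was low in NZO and high in 129Ola (probe at chr6:141754675-141754734, mm9). NZO mice had -1.03, -0.75, -0.21 and -1.08, and B6 mice 0.40, -0.08, -0.10 and 0.35. The groups did not overlap, although NZO 9 came close to the lowest B6 mouse. NZO was lower by 0.91 ± 0.25 (SE, adjusted p = 0.0161), a call lost without NZO 3 (adjusted p = 0.0536), NZO 11 (adjusted p = 0.0530) or B6 9 (adjusted p = 0.0537). DBA, from -0.74 to 0.48, overlapped with both. 129Ola mice had 1.47, 1.11, 1.27 and 1.92 against 0.12, 0.48, 0.07 and 0.61 in C3H, with C3H lower by 1.12 (2.17-fold, adjusted p = 0.00241, and 0.0789 with slide as a random block).

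Slco4a1, a carrier of thyroid hormone (probe at chr2:180209483-180209542, mm9), was above background on all arrays in B6 alone, at -2.38, -2.60, -2.14 and -2.68. No NZO array and 1 of 4 DBA arrays were above background. B6 was at least 2.82-fold higher than NZO (measured means -2.45 and -4.74), and the measured mean in DBA was lower than in B6 by 2.13. No array of C3H or 129Ola was above background, so no fold is given for that pair. Slco3a1 was lower in NZO than in B6 on both of its probes, by 0.83 (adjusted p = 0.000138) and 0.94 (adjusted p = 4.40e-06). In DBA the probes disagreed, with -0.61 on the brighter and a difference near 0 on the other (adjusted p = 1.00). Thus Slco1a4, Slco2a1 and Slco3a1 were lower in NZO than in B6, beside Slco4a1, which was tested only through B6, and no Slco gene was higher.

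In the Slc22a family, Slc22a7, the organic anion carrier OAT2 of the sinusoidal membrane, differed most on a well-detected probe (chr17:46569272-46569331, mm9). 129Ola mice 4, 5, 7 and 9 had 5.04, 5.17, 5.26 and 4.09, and C3H mice 1, 2, 3 and 5 had 7.36, 7.39, 7.50 and 7.16. C3H was higher by 2.46 ± 0.18 (SE, 5.52-fold, adjusted p = 1.81e-08). NZO mice had 7.78, 7.66, 7.60 and 7.68, B6 mice 6.80, 6.60, 6.81 and 7.00, and DBA mice 7.06, 6.95, 7.09 and 7.09. NZO lay above both strains without overlap. The NZO excess was 0.88 over B6 (adjusted p = 0.00213) and 0.63 over DBA (adjusted p = 0.0210), the latter lost with scan day as a block (adjusted p = 0.0772) and without NZO 3 (adjusted p = 0.0562) or DBA 9 (adjusted p = 0.0561).

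Of the carnitine and cation carriers, 3 neighbours on chromosome 11 were all lower in C3H than in 129Ola. Slc22a5, the main carnitine carrier (probe at chr11:53678550-53678609, mm9), had -1.09, -1.61, -1.15 and -1.22 in C3H against -0.50, -0.71, -0.44 and -0.61 in 129Ola, a difference of -0.70 ± 0.15 (SE, adjusted p = 0.00160). Slc22a21, a further carnitine carrier (chr11:53764508-53764567), had -1.97, -2.16, -1.90 and -1.86 in 129Ola and, in C3H, -2.71, -2.71, -2.86 and -3.87 with 2 of 4 arrays above background. That difference was -1.07 (adjusted p = 0.00120). Slc22a4, the ergothioneine carrier (chr11:53796841-53796900), had -1.88, -1.32, -0.78 and -2.21 in C3H against 0.53, 0.16, -0.51 and -0.64 in 129Ola, a difference of -1.44 ± 0.31 (SE, adjusted p = 0.00169, and 0.0660 with slide as a random block). None of the 3 genes overlapped between these strains. Among B6, NZO and DBA, Slc22a5 and Slc22a21 passed in no comparison. Slc22a4 was higher in NZO than in B6 by 0.95 (adjusted p = 0.0391), a call lost in 9 alternatives, among them scan day as a block (adjusted p = 0.0695).

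Slc22a15, a carrier of zwitterions such as carnitine (probe at chr3:101663036-101663095, mm9), was higher in NZO than in B6. NZO mice had 0.16, -0.64, -0.11 and 0.26, and B6 mice -1.09, -1.10, -1.70 and -1.16, with no overlap. The excess was 1.18 ± 0.21 (SE, 2.27-fold, adjusted p = 0.000595), and the second probe gave 0.64 (adjusted p = 0.374). NZO also exceeded DBA, by 0.75 (adjusted p = 0.0203), but these strains overlapped, with NZO 7 at -0.64 and DBA 8 at -0.53. That call was lost without NZO 3 (adjusted p = 0.0670), NZO 11 (adjusted p = 0.0679) or DBA 9 (adjusted p = 0.0781). It was also lost with only the 2 strains (adjusted p = 0.0839). C3H and 129Ola overlapped.

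The rodent organic anion carriers form a row on chromosome 19. Slc22a26 (probe at chr19:7856477-7856536, mm9) was above background on all arrays in NZO alone, at -2.82, -3.09, -0.86 and -2.56, and on no array of B6 or DBA. NZO was at least 3.44-fold higher than B6 (measured means -2.33 and -5.08) and at least 3.12-fold higher than DBA. Of its neighbours, Slc22a19 and Slc22a29 were above background on no array and Slc22a27 on 3, while Slc22a28 and Slc22a30 were above background on all 20. Slc22a28 was higher in DBA than in B6 by 0.67 ± 0.13 (SE, adjusted p = 0.000923), and its second probe gave 0.47 (adjusted p = 0.0411). DBA mice ranged from 4.50 to 4.75 and B6 mice from 3.69 to 4.25. Slc22a30 passed in no comparison.

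Slc22a16, a carnitine carrier, was above background on all C3H arrays and on no 129Ola array. C3H was at least 1.50-fold higher (measured means -2.13 and -4.52, adjusted p = 0.0314). The call was lost in 9 alternatives, among them slide as a random block (adjusted p = 0.122). NZO mice split, with -1.78 and -1.57 in mice 3 and 7 and -5.50 and -5.54 in mice 9 and 11.

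Of the listed main carriers, Slco1b2, Slco1a1 and Slc47a1 passed in no comparison. This does not hold for uptake carriers as a group, since 3 of 7 sinusoidal ones were strain-variable (Slco1a4, Slco2a1 and Slc22a7, all genes 19.2%). Slco1b2, which takes up bile acids, bilirubin and statins, ranged over all 20 mice from 7.64 to 8.76 and did not pass the F test (adjusted p = 0.235). Its mean differences were 0.07 for NZO minus B6, 0.26 for DBA minus B6 and -0.25 for C3H minus 129Ola, each with an SE of 0.16. Slco1a1, a further organic anion carrier, ranged from 4.12 to 5.05 (F test, adjusted p = 0.250). For Slc47a1, the canalicular cation extruder MATE1, the range was 2.05 to 2.99 (adjusted p = 0.238). These tests missed the threshold, which does not show equal levels.

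Slco2b1, a carrier of steroid sulfates and many oral drugs, was lower in DBA on its brightest probe, at 4.21, 4.19, 4.22 and 4.32 against 4.56 to 4.79 in B6 and 4.65 to 5.00 in NZO. DBA was lower than B6 by 0.43 ± 0.10 (SE, adjusted p = 0.00560). The second probe gave the opposite sign, 0.43 (adjusted p = 0.172). In C3H against 129Ola the 2 probes were called in opposite directions, -0.41 (adjusted p = 0.00453) and 0.79 (adjusted p = 0.00498 over probes), so no direction can be given for the gene. The first of these was lost under normexp background (adjusted p = 0.197). Of the 12 members with more than 1 tested probe, 10 had at least 1 comparison called on some probes and not on others (adjusted over probes). Beside Abcb8, Slco2b1 and Slco3a1 these were Abca2, Abca5, Abcb4, Abcc5, Abcc6, Abcf1 and Slc22a15.

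**Figure D4:**
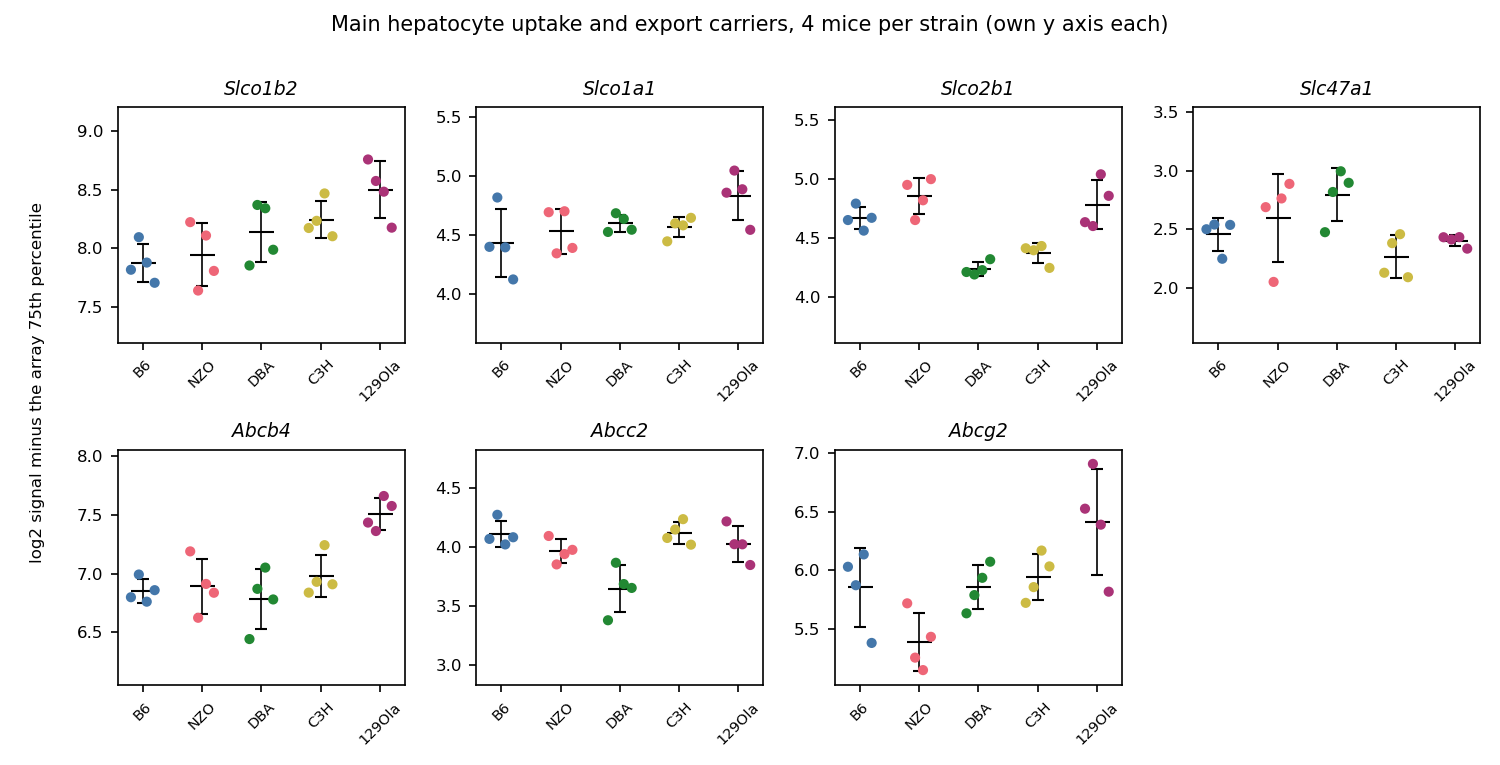
Level in each of 4 mice per strain (y axis, log2 signal minus the array's 75th percentile, own scale in each panel) for 7 main carriers of hepatocytes, by strain (x axis), with mean and SD. Slco1b2, Slco1a1 and Slc47a1 overlap among B6, NZO and DBA, and the mean of Abcb4 is highest in 129Ola.

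By role, of 7 sinusoidal uptake carriers 1 was higher and 2 lower in NZO than in B6 (9.69% and 8.56% of all genes), 1 was lower in DBA than in B6 (8.07%), and 2 were higher and 3 lower in C3H than in 129Ola (15.4% and 22.6%). The 1 lower in DBA and 1 of the 3 lower in C3H is Slco2b1 on its brightest probe, for which the probes disagree. Of 6 canalicular exporters 2 were higher in NZO than in B6 (both P-glycoprotein genes), 1 was higher and 1 lower in DBA, and 3 were lower in C3H than in 129Ola. Of 6 tested basolateral exporters none was higher and 3 were lower in NZO than in B6. Counts this small are not told apart from the shares over all genes, and no list was tested against them. The proteins of translation, Abce1 and Abcf1 to Abcf3, passed in neither comparison with B6, and the 3 Abcf genes were lower in C3H than in 129Ola by 0.31 to 0.35. With slide as a random block the calls for Abcf2 (adjusted p = 0.121) and Abcf3 (adjusted p = 0.126) were lost, and the second probe of Abcf1 gave -0.012 (adjusted p = 0.947).

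The other 26 members were never above background on all arrays of a strain and were not tested. In the Abc families they were Abca4, Abca12, Abca13, Abca14, Abca15, Abca16, Abcb5 and Abcc12. In the Slc22a and Slc47a families they were Slc22a2, Slc22a3, Slc22a8, Slc22a12, Slc22a14, Slc22a19, Slc22a20, Slc22a22, Slc22a27, Slc22a29 and Slc47a2. In the Slco family they were Slco1a5, Slco1a6, Slco4c1, Slco5a1, Slco6b1, Slco6c1 and Slco6d1. Abcc12 reached 7 of 20 arrays. Several are known from kidney, such as Slc22a2, Slc22a8, Slc22a12 and Slco4c1, and at this signal only an upper bound can be given for them.

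Of 22 regulators of these families, 1 was higher and 1 lower in NZO than in B6 (9.69% and 8.56% of all genes), and 8 were lower in C3H than in 129Ola (22.6% of all genes). The constitutive androstane receptor Nr1i3, a xenobiotic receptor, was lower in NZO than in B6 by 0.99 (adjusted p = 0.000585), higher in DBA than in B6 by 0.65 (adjusted p = 0.0166) and lower in C3H than in 129Ola by 1.20 (adjusted p = 6.75e-05). The pregnane X receptor Nr1i2 and the bile acid receptor Nr1h4 passed in none of these comparisons. Of 18 tested transporters and helpers outside the families, 3 were higher and 6 lower in NZO than in B6 (9.69% and 8.56% of all genes). The bile salt pump Abcb11 was lower in NZO than in B6 by 1.12 (adjusted p = 3.64e-06), and the sterol transporter Abcg5 was lower in C3H than in 129Ola by 1.57 (adjusted p = 6.99e-05). The main bile acid uptake carrier Slc10a1 differed by at most 0.08 in size in any comparison, with none past the threshold. No link between these genes and the members was tested.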

How the data were processed

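The deposited intensity values came from Agilent Feature Extraction. Its version, per the file headers, was 11.5.1.1 for the 129Ola and C3H arrays and 11.0.1.1 for the rest, while the submitters' processing notes name 9.1. Per the file headers, the processed signal is a background-corrected, spatially detrended intensity, with no scaling between arrays. Other columns the authors deposited hold flags for spots well above background, saturated or outlying, and probe names. Control and outlier spots were left out, log2 was taken and each array's 75th percentile subtracted. Genes above background on all 4 arrays of a strain were tested, each through its brightest probe, in 1 limma model (limma 3.58.1, R 4.3.3) of 5 strain means over 20 arrays with 15 residual degrees of freedom, tested on simulated data. P-values were adjusted by Benjamini-Hochberg over 20613 genes, or over 28431 probes where a second probe is cited. A single array per mouse is assumed, so p-values set a difference against the spread between mice of a strain, pooled over the 5 strains. For C3H against 129Ola that spread does not hold a difference between their scan days. Coordinates are mm9 from the files, and whether a probe lies in an exon or UTR was not analysed here. Of 117 member probes, 110 matched a RefSeq accession, and the symbol differed for 1.

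Named members are the 10 largest called differences per comparison, all strain-variable members and a list of main carriers, with other family members given as counts or examples. The values of 1 listed carrier are not reported here. The members and lists were chosen with earlier results of these data known. Alternatives were normexp background, quantile normalization, other percentiles and filters, all probes, the authors' series value table (log2 taken here from deposited values with 20 identical distributions over 37892 probes, whose background correction and offset stay unknown), scan day, slide and animal number as blocks, only the 2 strains compared, and each mouse left out. The number of arrays limits the precision.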

Additional observations from a re-analysis of the deposited data

Results flagged for a closer look

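In 8 of 145 groups of 4 mice, 1 mouse stood apart by Dixon's criterion, and chance flags about 1 in 20 groups. Mouse 129Ola 9 had 1.36 for Abcb1b (others 0.15 to 0.31) and 3.86 for Slco2a1 (others 2.82 to 2.97). The same mouse had -3.72 for Slc22a16, not above background. C3H 5 had 4.26 for Abcc6 and -3.87 for Slc22a21, and DBA 5 had 4.09 for Abcc6. B6 11 had -1.70 for Slc22a15 and 2.25 for Slc47a1.

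The difference between a susceptible and a resistant strain was compared between the 2 pairs, as (DBA minus B6) minus (C3H minus 129Ola), by a contrast of the same limma model. It passed in 22 of 61 members (36.1%, all genes 28.1%), 16 above and 6 below 0, and 14 of these are described by name. With the percentile over probes above background on all arrays the split was 10 and 8, and 32.2% of called genes lay above 0 in place of 56.8%. Abcb1b differed by 4.83, Abca3 by 2.43, Abca17 by 2.26, Slc22a4 by 1.55, Abcb1a by 1.23 and Abcc6 by 1.19. Slc22a5 differed by 0.84 and Slc22a28 by 0.77. Slc22a16 differed by -3.48, Slc22a7 by -2.22, Slco2a1 by -1.70, Slco3a1 by -0.63, Abcc2 by -0.56 and Abcb8 by -0.50. Adjusted p-values ran from 1.30e-10 for Abca3 to 0.0348 for Slc22a16, whose call was lost in 14 alternatives beside the replicate block. The 2 pairs were read out with different software versions and scan days, and C3H and 129Ola cannot be told apart from theirs.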

How the results depend on the processing

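Of 72 calls for named members, 47 held in every alternative run on them except, for some, the replicate block, and 25 were lost in at least 1 other. No call reversed in these. Second probes of a gene did not enter this tally. On its second probe Slco2b1 was called in the opposite direction in C3H against 129Ola (0.79, limma adjusted p = 0.00498 over probes). The Abcb8 calls for DBA against B6 and NZO against DBA, counted as held, did not pass on its second probe (0.19 and 0.07). Leaving out 1 mouse gave 16 to 22 called members for NZO minus B6, 13 to 16 for DBA minus B6, 12 to 20 in NZO against DBA, 26 to 33 in C3H against 129Ola, 19 to 28 for the difference of differences, 37 to 43 for the within-strain-set F test and 47 to 52 for the 5-strain F test, which passed in 51 members (71.2% of all genes). The 12 was without NZO 3. With slide as a random block, 13 members passed in C3H against 129Ola (2 higher, 11 lower) and 12 for the difference of differences. The 11 include Slco4a1, above background in neither strain, and Slco2b1, whose probes disagree. No slide held both C3H and 129Ola mice, so this block cannot tell slide from strain in that pair. The cause of the lower counts was not tested. With the animal number as a replicate block, 9 members passed for NZO minus B6, 5 for DBA minus B6, 7 for NZO minus DBA, 7 in C3H against 129Ola, 8 for the difference of differences, 16 and 30 for the 2 F tests, and 40 of the 72 calls were lost. No share of all genes is given for the slide and animal number blocks or with 1 mouse left out. Whether members lost more calls there than other genes is therefore not shown. Same-numbered mice showed no sign of pairing: deviations of the 13 same-numbered pairs correlated at -0.34 to 0.38 (median -0.021), those of 147 other pairs at -0.48 to 0.69 (median 0.0011). The highest value was that of NZO 7 with DBA 5, which shared a slide and a scan day. Scan day as a block adjusts only B6, NZO and DBA. Under it the DBA differences rest on DBA 5 and DBA 9, since DBA 8 and DBA 15 had day 3 to themselves. Genes dim in a strain, such as Abcb1b in C3H, have only bounds.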
